A study of Mus musculus with 14 samples.

Results

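The 49 genes described here are markers of cell proliferation, chosen by name from a table of 15894 genes, and all 49 were listed there. They comprise 16 genes that act as cells enter S phase and copy their DNA and 33 genes that act in mitosis, and the S-phase and mitotic genes are described apart. RNA had been sequenced from the epicardium and the subepicardium, the outer layers of the heart, dissected from the ventral or the dorsal side of mouse hearts at E16.5, and the study compared the regions and the sexes. There were 13 libraries in 4 groups, numbered 1 to 3 for each region in females, 4 to 7 for the ventral and 4 to 6 for the dorsal region in males, and each library came from the pooled tissue of 2 hearts. All groups shared one genotype, given as Tbx18Cre in the sample labels, an allele with Cre under the control of the epicardial gene Tbx18, whereas the series calls the hearts wild type. None was treated. A further male library, numbered 7, carried dorsal in its title and ventral in its tissue field. It entered no comparison, and its values are given apart as those of the unsettled library.

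A dividing cell copies its DNA in S phase and segregates the copies in mitosis, and each step has its own set of transcripts. Cyclin E and the E2F factors open S phase, the MCM proteins form the helicase that unwinds the template, and ribonucleotide reductase supplies the nucleotides. Later, cyclins A and B with Cdk1 drive the cell into mitosis, the spindle checkpoint holds it until the chromosomes are attached, and the anaphase ubiquitin ligase then destroys the B cyclins. In the embryonic heart, epicardial cells, the fibroblasts and vessel cells beneath them and cardiomyocytes all still divide.

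The promoters of the mitotic genes are known for a CCAAT box together with a cell cycle homology region, here searched as TTTGAA or TTTAAA, and those of the S-phase genes for E2F motifs, here searched as TTTGGCGC, TTTCCCGC, TTTCGCGC and TTTGCCGC. Each motif was searched on both strands, and TTTAAA reads the same on both. RefSeq windows of 300 bases, from 250 bases before to 50 after a start on GRCm38.p6, were found for 41 of the 49 members, 13 S-phase and 28 mitotic. A CCAAT box was present for 21 mitotic genes (75.0%) and 8 S-phase genes (61.5%), against 41.1% of all 27025 genes with such a window. The cell cycle homology letters were present for 23 mitotic genes (82.1%) and 4 S-phase genes (30.8%), against 30.6% of all genes. Both elements stood in the same gene's windows for 20 mitotic genes (71.4%) and 3 S-phase genes (23.1%), against 12.2% of all genes. An E2F motif was present for 6 S-phase genes (46.2%) and for 1 mitotic gene, Cdk1 (3.57%), against 2.6% of all genes. These matches describe letters in the windows and were not tested for binding.

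The 200 bases before the RefSeq start of 4 members are shown for their different arrangements. In females, moreover, the regional values of Ccnb2 and Mcm6 ran opposite to those of Mki67 and Cenpf. Capitals mark CCAAT boxes (ATTGG on the other strand), the cell cycle homology letters and E2F motifs, and each sequence reads 5′ to 3′ on the strand of its gene.
Ccnb2 (chr9:70421555-70421754, minus strand): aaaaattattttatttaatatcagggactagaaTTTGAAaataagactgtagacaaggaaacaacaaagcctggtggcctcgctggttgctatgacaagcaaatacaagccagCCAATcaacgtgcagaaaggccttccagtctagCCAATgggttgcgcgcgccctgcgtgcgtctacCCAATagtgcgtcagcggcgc
Mcm6 (chr1:128359706-128359905, minus strand): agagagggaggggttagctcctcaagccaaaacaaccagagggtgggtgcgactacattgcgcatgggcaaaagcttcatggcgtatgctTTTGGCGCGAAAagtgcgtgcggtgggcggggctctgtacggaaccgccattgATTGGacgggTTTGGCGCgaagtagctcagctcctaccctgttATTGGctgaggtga
Mki67 (chr7:135716380-135716579, minus strand): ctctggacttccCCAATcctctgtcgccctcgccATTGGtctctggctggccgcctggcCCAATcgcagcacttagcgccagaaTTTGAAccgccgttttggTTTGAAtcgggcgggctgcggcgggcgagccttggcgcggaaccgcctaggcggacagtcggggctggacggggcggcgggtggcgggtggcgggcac
Cenpf (chr1:189688087-189688286, minus strand): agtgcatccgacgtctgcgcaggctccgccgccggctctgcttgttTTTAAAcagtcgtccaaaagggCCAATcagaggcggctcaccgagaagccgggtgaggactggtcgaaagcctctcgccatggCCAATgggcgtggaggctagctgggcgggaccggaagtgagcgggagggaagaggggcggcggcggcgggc
The stretch of Ccnb2, a B-type cyclin, held 3 CCAAT boxes with a TTTGAA upstream of them. That of Mcm6, a subunit of the replicative helicase, held 2 CCAAT boxes and 2 E2F sites, of which the upstream one contains 2 overlapping motifs. Outside these stretches, Ccnb2 and Cenpf each held a TTTGAA just after the start, at bases 4 to 9 and 2 to 7. Mki67 and Cenpf also carried CCAAT boxes and cell cycle homology letters, so these letters were shared by members that were higher dorsally and by members that were higher ventrally in females.

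Reads on listed genes ranged from 13918995 to 25221314 per library. The members took between 0.320% of them (male ventral library 7) and 0.596% (female dorsal library 3), and the member with the fewest reads in any library, Mybl2, still had 78. All 49 passed the filter on low values in each comparison. Values are the authors' normalised read counts, scaled to library size (CPM). A change is the ventral minus the dorsal mean of log2(CPM + 1), with the standard error (SE) from limma, and a gene was called under a Benjamini-Hochberg adjusted p of 0.05 over all genes tested. In these bulk samples, fewer cells of a type and less RNA per cell cannot be told apart, so a lower value may reflect either. Epicardial markers were present in every library, and their levels on the 2 sides are given further on.

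In females, 24 of the 49 members were called higher dorsally, 3 were called higher ventrally and 22 were not called. Of all 14411 genes tested, 13.3% were called higher dorsally and 14.5% ventrally. The 24 comprised 8 of the 16 S-phase genes and 16 of the 33 mitotic genes. The median change was -0.50 over the S-phase genes and -0.44 over the mitotic genes, beside 0.01 over all genes. The 3 ventral and 3 dorsal libraries did not overlap for 28 members that were higher dorsally and for 3 that were higher ventrally, where 21.6% and 23.2% of all genes tested were separated in these directions. The count of called members in either direction was 16 without female ventral library 3 or without female dorsal library 2, and 17 without female dorsal library 3. Of all genes tested, 19.3%, 16.1% and 22.5% were called in these fits, against 27.8% with every library.

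**Figure D1:**
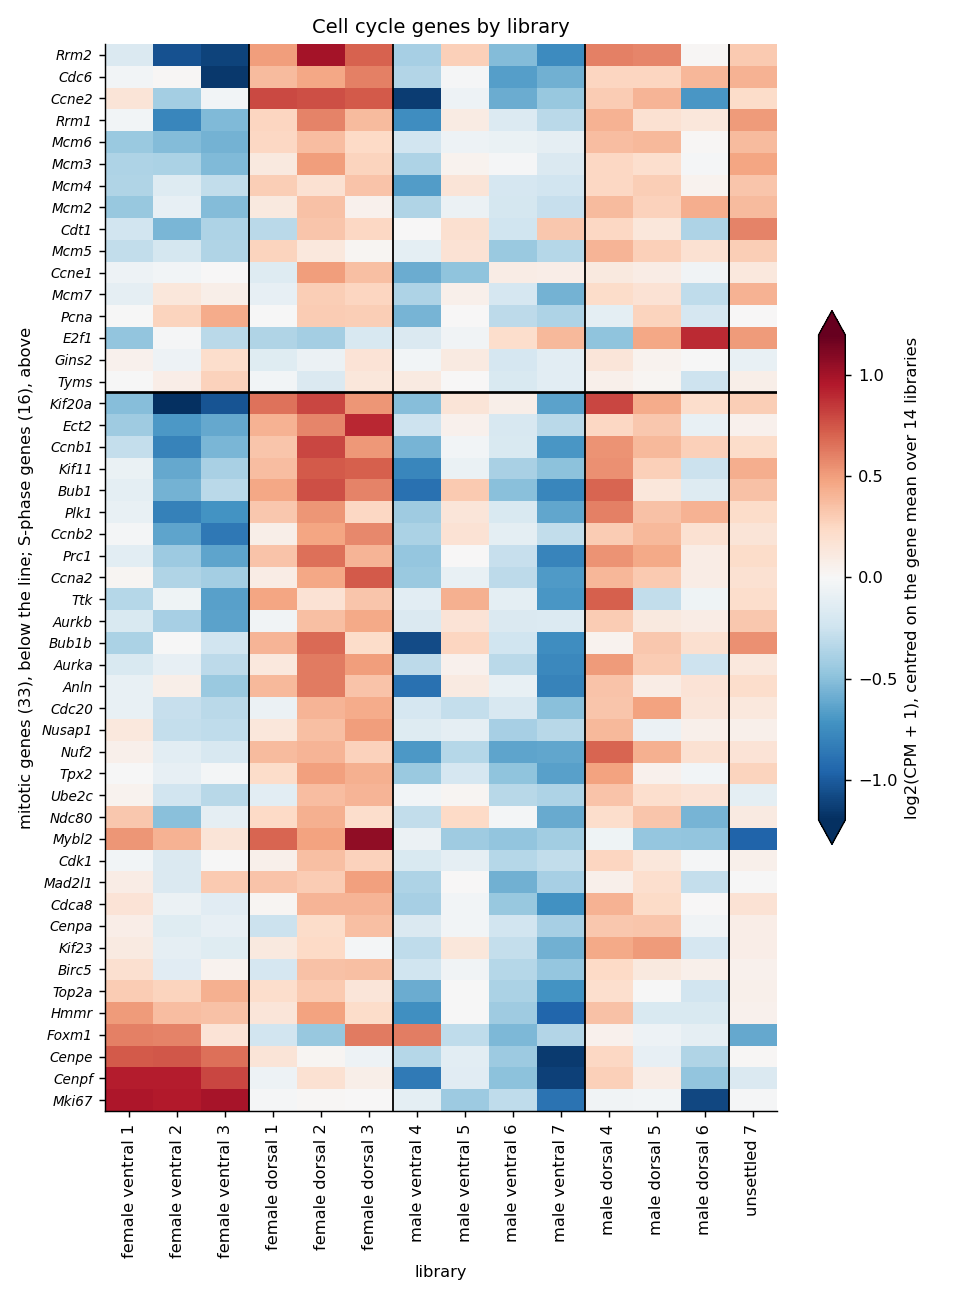
Heat map of the 49 members (rows; S-phase genes above the line, mitotic genes below, each ordered by the female change) in 14 libraries (columns); colour is log2(CPM + 1) centred on the gene's mean over the 14 libraries. Most rows are bluer in ventral and redder in dorsal libraries, while Mki67, Cenpf and Cenpe at the foot are reddest in the 3 female ventral libraries.

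Among the mitotic cyclins and kinases, 6 of 7 were called higher dorsally in females. Ccnb1, the cyclin that activates Cdk1 at entry into mitosis (ENSMUSG00000041431, chr13:100778650-100786570, GRCm38), was at 150, 105 and 125 CPM in female ventral libraries 1 to 3 and at 231, 319 and 264 CPM in female dorsal libraries 1 to 3. The dorsal mean was 2.14-fold the ventral mean (log2 change -1.10 ± 0.17 SE, limma adjusted p = 0.00245), and each dorsal library lay above each ventral one. Plk1, a kinase of spindle assembly and mitotic exit, was at 60.5, 36.3 and 38.8 CPM ventrally and at 80.7, 93.0 and 76.8 CPM dorsally (log2 change -0.90 ± 0.20 SE, limma adjusted p = 0.00986). Again the groups did not overlap. Ccna2, the cyclin of S phase and G2, was at 119, 90.4 and 87.4 CPM ventrally and at 124, 161 and 195 CPM dorsally (-0.68 ± 0.19 SE, limma adjusted p = 0.0252), so that ventral library 1 came close to dorsal library 1. Aurkb, the kinase of the chromosomal passenger complex, was at 43.1, 37.1 and 31.3 CPM ventrally and at 47.6, 63.4 and 67.7 CPM dorsally (-0.66 ± 0.19 SE, limma adjusted p = 0.0265). Ccnb2 and Aurka were also called, with log2 changes of -0.88 and -0.62. Cdk1 itself was at 135, 123 and 138 CPM ventrally and 144, 178 and 168 CPM dorsally, which did not pass the test (-0.31 ± 0.13 SE, limma adjusted p = 0.117) although the groups did not overlap.

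The largest dorsal excess was found among the spindle and cytokinesis genes, of which 6 of 9 were called. Kif20a, a kinesin of the central spindle, was at 63.5, 37.7 and 43.9 CPM in the female ventral libraries and at 143, 159 and 132 CPM in the dorsal ones. Each dorsal library had more than any ventral one (log2 change -1.59 ± 0.19 SE, limma adjusted p = 0.000775). The counts of Kif20a are uncertain in part, since 24.5% of its 60-base windows also occur in the adjoining gene Cdc23. Ect2, which activates the contractile ring, followed with a dorsal mean of 82.9 ± 14.7 CPM against 35.0 ± 3.48 CPM ventrally (SD, n = 3 each; log2 change -1.21, limma adjusted p = 0.00138). Prc1, which bundles the microtubules of the central spindle, was at 137, 111 and 96.5 CPM ventrally and at 191, 238 and 198 CPM dorsally (-0.87 ± 0.16 SE, limma adjusted p = 0.00481). Kif11, the motor that separates the spindle poles, Anln and Tpx2 were called as well, with changes of -0.97, -0.61 and -0.42. The other 3, Nusap1, Kif23 and Hmmr, did not pass the test, with changes of -0.49, -0.16 and 0.12.

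Of the spindle checkpoint genes, 2 of 4 were called higher dorsally. Bub1, a checkpoint kinase at the kinetochore, was at 39.4, 28.5 and 33.9 CPM ventrally and at 59.2, 73.9 and 64.9 CPM dorsally (log2 change -0.95 ± 0.17 SE, limma adjusted p = 0.00395). Bub1b was at 48.3, 63.1 and 53.8 CPM ventrally and at 84.2, 102 and 73.9 CPM dorsally (-0.64 ± 0.17 SE, limma adjusted p = 0.0197). Neither gene's groups overlapped. Ttk and Mad2l1 had changes of -0.68 and -0.30 and were not called (limma adjusted p = 0.0509 and 0.175). Of the 2 genes of the anaphase ubiquitin ligase, its activator Cdc20 was at 143, 125 and 121 CPM ventrally and at 145, 203 and 208 CPM dorsally. Cdc20 just passed the test (-0.50 ± 0.16 SE, limma adjusted p = 0.0487), with ventral library 1 and dorsal library 1 nearly equal, and with the library number as a block it did not (limma adjusted p = 0.0555). Its partner Ube2c was not called (-0.40, limma adjusted p = 0.120).

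The kinetochore and centromere genes were divided. Nuf2, of the complex that binds microtubules, was the 1 of 7 called higher dorsally, at 51.5, 45.1 and 43.0 CPM ventrally and 64.4, 65.6 and 59.7 CPM dorsally (-0.44 ± 0.14 SE, limma adjusted p = 0.0453). With the library number as a block its adjusted p was 0.0611, and after correction for GC content and length its change was -0.08. Cenpf, a large protein of the outer kinetochore (ENSMUSG00000026605, chr1:189640606-189688086), was at 189, 189 and 172 CPM in the female ventral libraries and at 94.1, 111 and 103 CPM in the dorsal ones, the reverse order (0.83 ± 0.13 SE, limma adjusted p = 0.00224). Cenpe, a kinetochore motor, was also higher ventrally, at 97.2 ± 3.11 against 60.6 ± 4.63 CPM (SD, n = 3 each; log2 change 0.68, limma adjusted p = 0.00550). Birc5, the survivin subunit of the passenger complex, was at 172, 137 and 155 CPM ventrally and 131, 193 and 193 CPM dorsally, with overlap (-0.14, limma adjusted p = 0.583). Cdca8, Cenpa and Ndc80 were not called either, with changes between -0.39 and -0.16.

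Mki67, which encodes the proliferation antigen Ki-67 that coats mitotic chromosomes, had the largest ventral excess of the members. The gene (ENSMUSG00000031004, chr7:135689784-135716361) was at 194, 191 and 197 CPM in female ventral libraries 1 to 3 and at 97.7, 99.5 and 98.9 CPM in the dorsal libraries (log2 change 0.97 ± 0.12 SE, limma adjusted p = 0.000812). The spread within each group was small beside this difference. Top2a, the topoisomerase that untangles sister chromatids and, with Mki67, the other gene of mitotic chromosomes, was at 283, 275 and 307 CPM ventrally and at 265, 285 and 253 CPM dorsally, with overlap (0.11 ± 0.13 SE, limma adjusted p = 0.557). Of the 2 transcription factors of mitotic genes, Foxm1 was at 22.7, 22.5 and 16.5 CPM ventrally and 12.3, 10.4 and 23.0 CPM dorsally (0.48 ± 0.30 SE, limma adjusted p = 0.261). Mybl2 had a change of -0.38 and was not called (limma adjusted p = 0.295).

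Of the replication licensing and helicase genes, 5 of 9 were called higher dorsally in females, and all 5 were MCM genes. Mcm6 (ENSMUSG00000026355, chr1:128331590-128359664) was at 117, 111 and 108 CPM in the ventral libraries and at 191, 208 and 190 CPM in the dorsal ones, 1.75-fold higher (log2 change -0.80 ± 0.12 SE, limma adjusted p = 0.00215). Mcm2 was at 52.3, 67.5 and 50.1 CPM ventrally and at 78.7, 92.7 and 74.7 CPM dorsally (-0.53 ± 0.16 SE, limma adjusted p = 0.0357). Mcm5 was at 45.8, 48.6 and 43.7 CPM ventrally and at 68.3, 61.6 and 57.3 CPM dorsally (-0.43 ± 0.14 SE, limma adjusted p = 0.0485). None of the 3 overlapped between the groups, although with the library number as a block Mcm5 was not called (limma adjusted p = 0.0667). Mcm3 and Mcm4 changed by -0.72 and -0.54, whereas Mcm7, the remaining MCM member, had a change of -0.12 and was not called. Cdc6, a loading factor of the helicase, was at 23.5, 24.3 and 10.2 CPM ventrally and at 31.6, 33.6 and 37.2 CPM dorsally (-0.88 ± 0.30 SE, limma adjusted p = 0.0524). It just missed the test, and passed with the library number as a block (limma adjusted p = 0.0339). Cdt1 and Gins2 were not called (-0.47 and 0.08), and 65.1% of the windows of Gins2 are shared with its neighbour Gse1.

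The genes of DNA synthesis and nucleotide supply moved unequally. Both subunits of ribonucleotide reductase were called higher dorsally. Rrm2 was at 244, 133 and 127 CPM ventrally and at 392, 551 and 450 CPM dorsally, 2.76-fold higher (log2 change -1.51 ± 0.24 SE, limma adjusted p = 0.00266). Rrm1 had means of 133.5 ± 36.5 CPM ventrally and 237.9 ± 28.8 CPM dorsally (SD, n = 3 each; -0.86, limma adjusted p = 0.0107). In contrast, Pcna, the sliding clamp of the polymerase, was at 135, 164 and 185 CPM ventrally and 135, 168 and 167 CPM dorsally (0.04 ± 0.16 SE, limma adjusted p = 0.880). Tyms, thymidylate synthase, was at 71.9, 76.2 and 87.3 CPM ventrally and 70.5, 63.6 and 79.0 CPM dorsally (0.14 ± 0.15 SE, limma adjusted p = 0.497). The groups of Pcna and Tyms overlapped. Reads of Pcna may be split with a pseudogene, as 17% of its windows are shared. Of the G1/S regulators, Ccne2 was called, at 53.7, 36.1 and 47.0 CPM ventrally and 84.1, 83.2 and 80.6 CPM dorsally (-0.86 ± 0.17 SE, limma adjusted p = 0.00544). Its paralogue Ccne1 was at 23.7, 24.1 and 24.8 CPM ventrally and 22.1, 35.5 and 32.0 CPM dorsally (-0.27 ± 0.21 SE, limma adjusted p = 0.361). E2f1 was at 12.3, 17.2 and 13.8 CPM ventrally and 13.4, 12.9 and 15.1 CPM dorsally (0.05 ± 0.22 SE, limma adjusted p = 0.892). Both Ccne1 and E2f1 overlapped between the groups.

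**Figure D2:**
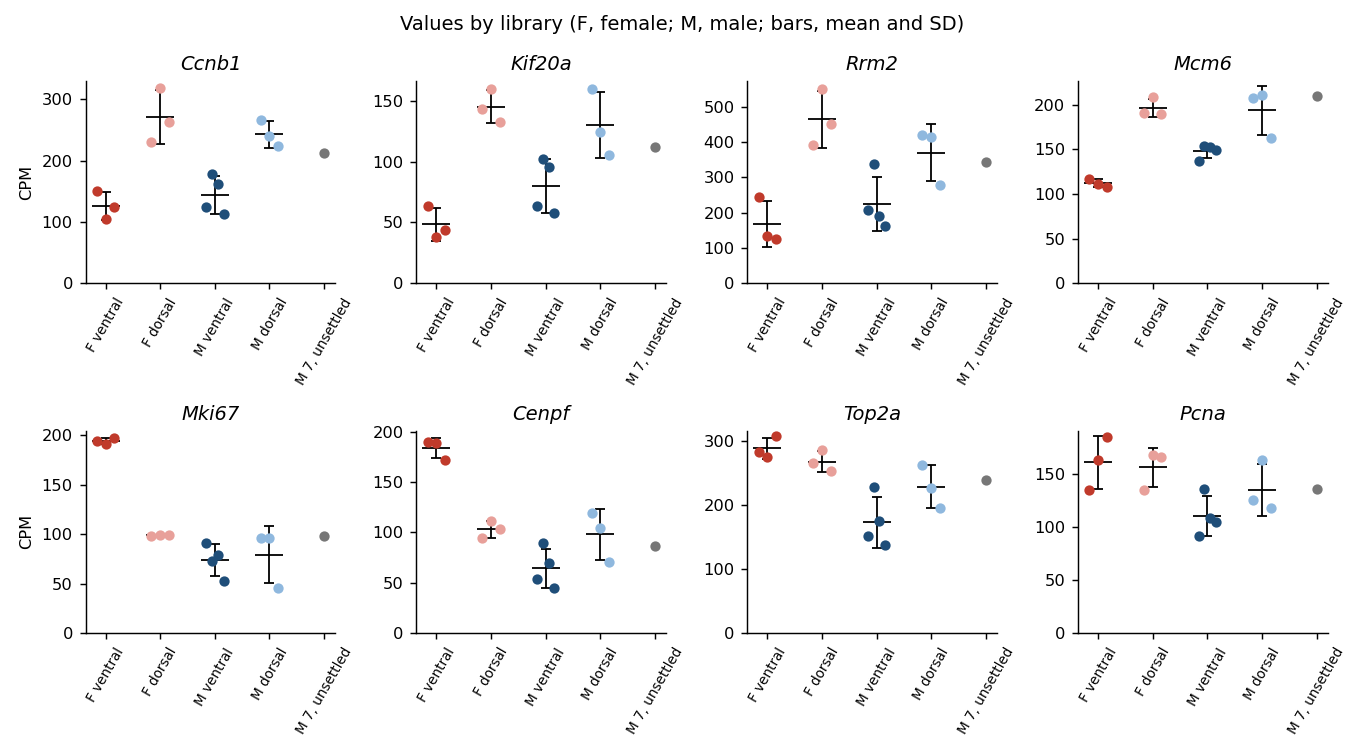
CPM of 8 members in each library (points), with the group mean and SD (black bars) in females (3 libraries a region) and males (4 ventral, 3 dorsal), and the unsettled male library 7 alone. Ccnb1, Kif20a, Rrm2 and Mcm6 are lower ventrally in females, Mki67 and Cenpf are higher, and Top2a and Pcna overlap.

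The 3 members higher ventrally in females had long transcripts. Cenpf (11130 bases), Mki67 (10061 bases) and Cenpe (7910 bases) were the 3 longest of the 49, and the fourth, Mad2l1 (7557 bases), was not called. Change went with transcript length over all genes in the female libraries, with a median of -0.14 for transcripts of 2000 to 4000 bases and of 0.44 for those over 8000 bases. In males, the median over 8000 bases was 0.13. After each library was corrected for its trend over GC content and transcript length, Mki67 (0.58, limma adjusted p = 0.00859), Cenpe (0.46, adjusted p = 0.0251) and Cenpf (0.46, adjusted p = 0.0461) were still called higher ventrally, with smaller changes. With the library number as a block in the same fit, the adjusted p of Cenpf was 0.0527. Under the correction alone 18 members were called higher dorsally, 6 S-phase and 12 mitotic, against 11.2% of all genes. Ccna2, Aurka, Aurkb, Tpx2, Mcm4, Mcm5 and Nuf2 were then no longer called, and Mad2l1 was.

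**Figure D3:**
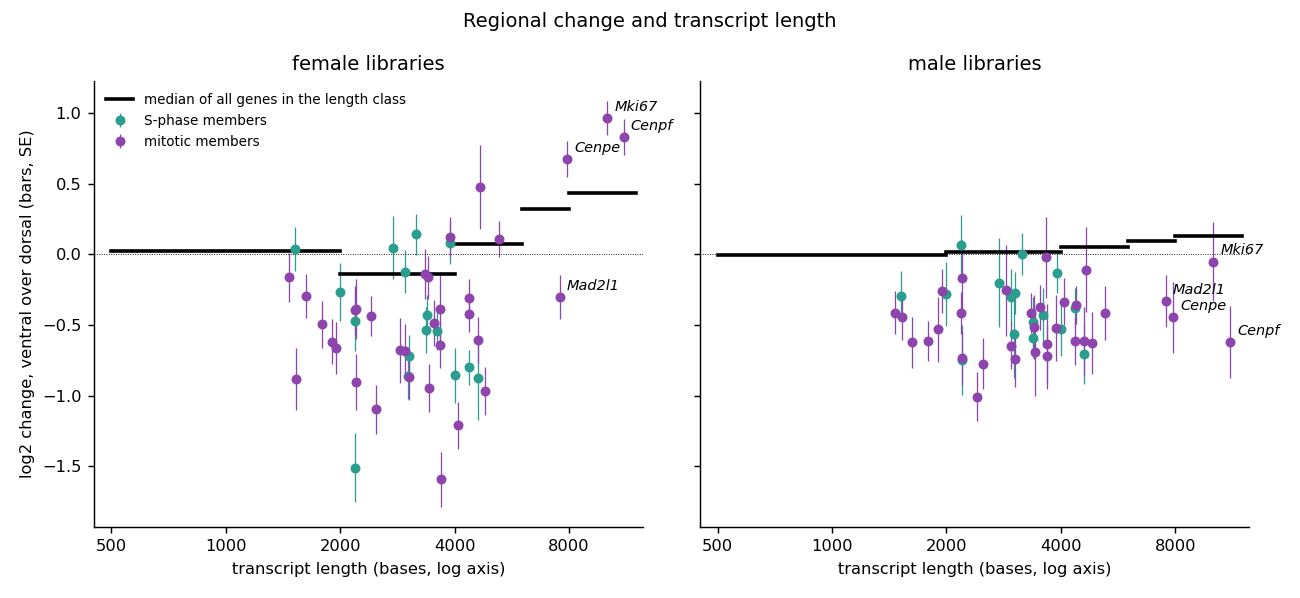
Change between ventral and dorsal libraries (log2, bars are SE) of each member against transcript length (log axis), in females (left; 3 and 3 libraries) and males (right; 4 and 3 libraries), with the median of all genes in each length class as a black line. In females the class median is -0.14 at 2000 to 4000 bases and 0.44 over 8000 bases, and Mki67, Cenpf and Cenpe lie above it at the right.

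In males no member was called, and neither was any other gene (0%) at an adjusted p of 0.05. The smallest adjusted p of a member was 0.226 in limma and 0.325 in edgeR, which also called none. Nevertheless, 47 of the 49 members were lower ventrally, where 47.1% of all genes tested were. In 29 of the members the unadjusted p was under 0.05, all in that direction. Of all 14917 genes tested, 7.12% had such a p and were higher dorsally. This count of 29 was 12 without male dorsal library 4 and 15 without male dorsal library 5. It was 16 with quantile normalization or with eBayes without trend. The share of all genes with such a p was not counted under these settings. The 4 ventral and 3 dorsal libraries did not overlap for 19 members, all higher dorsally, against 7.82% of all genes tested. The median change was -0.34 over the S-phase genes and -0.51 over the mitotic genes, with 0.03 over all genes. With the library number as a block, 1 member, Nuf2, was called (-0.99, limma adjusted p = 0.0262), as were 0.509% of all genes tested in that fit; ventral library 7 has no settled partner and contributes nothing to that fit.

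Nuf2 also had the largest male change, from 30.1, 38.7, 31.5 and 31.5 CPM in male ventral libraries 4 to 7 to 80.5, 66.7 and 55.8 CPM in male dorsal libraries 4 to 6 (log2 change -1.01 ± 0.18 SE, limma adjusted p = 0.226). Ccnb1 was at 124, 178, 162 and 113 CPM ventrally and at 267, 240 and 223 CPM dorsally (-0.77 ± 0.18 SE, limma adjusted p = 0.268). Both were separated without overlap. Plk1 was at 47.7, 71.2, 56.6 and 41.4 CPM ventrally and 98.5, 82.3 and 86.5 CPM dorsally. Ccna2 was at 85.2, 109, 93.9 and 72.5 CPM ventrally and 154, 145 and 124 CPM dorsally. Cdc20 was at 132, 125, 133 and 107 CPM ventrally and 192, 213 and 168 CPM dorsally. These 3 did not overlap either. Cdk1 was at 121, 128, 109 and 112 CPM ventrally and 165, 151 and 136 CPM dorsally, and Birc5 at 128, 146, 118 and 109 CPM against 178, 164 and 157 CPM, each without overlap. Aurkb was at 43.4, 55.1, 43.5 and 43.7 CPM against 61.0, 53.4 and 52.3 CPM, where ventral library 5 lay within the dorsal range.

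The spindle genes behaved alike in direction. Kif20a was at 63.5, 102, 95.5 and 57.9 CPM in the male ventral libraries and 160, 124 and 106 CPM in the dorsal ones (-0.72 ± 0.23 SE, limma adjusted p = 0.288). Prc1 was at 108, 150, 124 and 85.9 CPM ventrally and 218, 205 and 159 CPM dorsally (-0.74 ± 0.20 SE, limma adjusted p = 0.285). Neither overlapped, though ventral library 5 and dorsal library 6 stood close together in both genes. Bub1 was at 22.4, 53.4, 29.8 and 24.5 CPM against 70.1, 46.9 and 38.3 CPM. Bub1b was at 29.6, 75.8, 53.4 and 37.2 CPM against 64.9, 79.2 and 72.4 CPM. Both checkpoint genes overlapped because of ventral library 5.

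Among the S-phase genes in males, Mcm2 was at 55.9, 68.7, 62.3 and 59.4 CPM ventrally and 94.3, 87.8 and 98.0 CPM dorsally (-0.60 ± 0.14 SE, limma adjusted p = 0.264). Mcm6 was at 137, 154, 152 and 149 CPM against 208, 211 and 162 CPM, and Mcm5 at 52.0, 63.9, 41.3 and 44.3 CPM against 75.5, 69.1 and 64.4 CPM. The MCM values did not overlap in these 3 genes. Cdc6 was at 18.5, 23.7, 14.8 and 15.8 CPM against 28.8, 28.8 and 32.0 CPM, also without overlap. Rrm2 was at 208, 337, 192 and 163 CPM ventrally and 420, 414 and 278 CPM dorsally, where ventral library 5 exceeded dorsal library 6 (-0.75 ± 0.25 SE, limma adjusted p = 0.299). Ccne2 was at 21.4, 46.2, 31.5 and 34.9 CPM against 59.7, 64.0 and 29.2 CPM, and dorsal library 6 was low among the dorsal ones. Ccne1 was at 16, 17.5, 26.4 and 26.2 CPM against 26.9, 26.4 and 24.0 CPM. Pcna was at 92.0, 137, 109 and 105 CPM against 125, 163 and 118 CPM. Tyms was at 77.6, 71.9, 63.3 and 65.8 CPM against 75.2, 73.0 and 60.4 CPM, and E2f1 at 15.4, 16.9, 20.3 and 23.1 CPM against 12.2, 24.5 and 33.3 CPM. The groups of Ccne1, Pcna, Tyms and E2f1 all overlapped.

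The members that were higher ventrally in females were not so in males. Mki67 was at 90.7, 72.5, 79.4 and 52.8 CPM in male ventral libraries and 95.9, 96.3 and 45.7 CPM in male dorsal ones (-0.05 ± 0.28 SE, limma adjusted p = 0.950). Cenpf was at 53.9, 88.9, 69.3 and 44.4 CPM against 120, 104 and 70.5 CPM (-0.62 ± 0.25 SE, limma adjusted p = 0.325). Dorsal library 6 was the lowest dorsal library in both. Top2a was at 151, 228, 175 and 138 CPM against 263, 227 and 195 CPM, and Foxm1 at 22.8, 11.6, 9.71 and 11.2 CPM against 15.2, 13.9 and 13.4 CPM, both with overlap. Compared side by side, 38 members had a negative change in each sex, and Tyms had a positive one in each. Another 9 members (Mki67, Top2a, Cenpe, Cenpf, Pcna, E2f1, Gins2, Hmmr and Foxm1) had a positive change in females and a negative one in males, and Cdt1 showed the opposite signs.

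**Figure D4:**
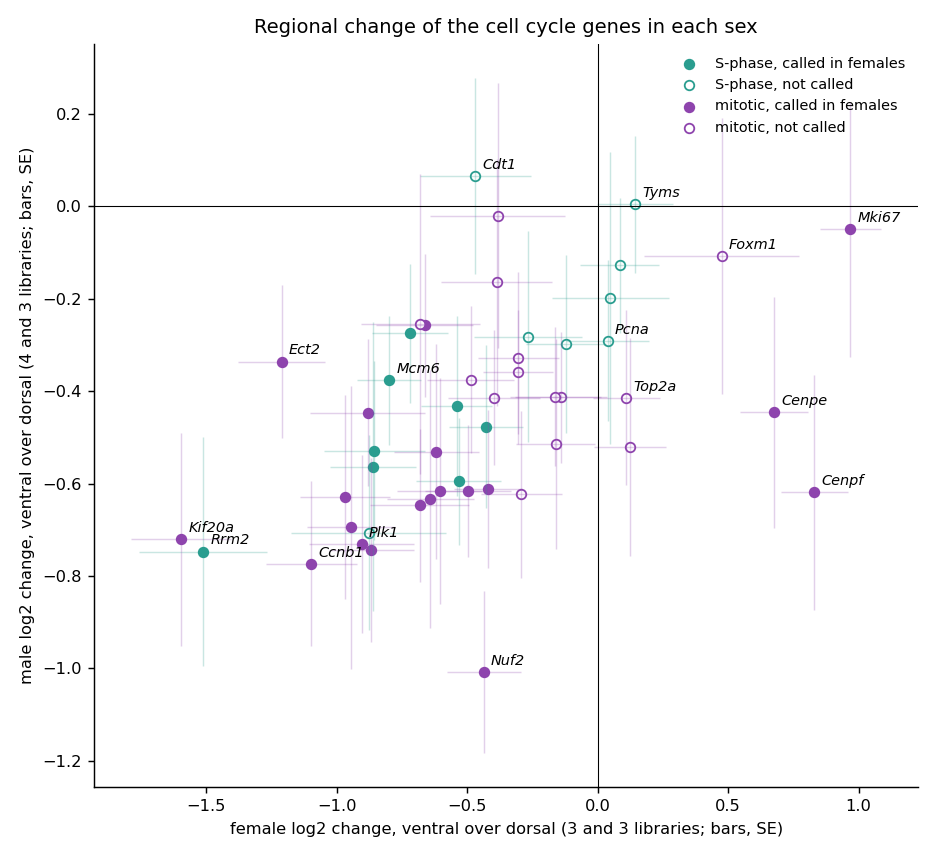
Change between ventral and dorsal libraries (log2, bars are SE) of the 49 members in females (x axis) and males (y axis); filled points passed the test in females and none did in males. Most points lie at the lower left, and Mki67, Cenpf and Cenpe at the right, below 0 on the male axis.

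Whether a member's regional change differed by sex was tested directly, and Cenpf was the 1 member called, with a change 1.45 lower in males on the log2 scale (-1.45 ± 0.31 SE, limma adjusted p = 0.0203). Of all 15772 genes tested, 0.615% were called in this direction and 2.12% in the other. The difference for Cenpe was -1.12 (limma adjusted p = 0.0685), that for Mki67 -1.02 (adjusted p = 0.139) and that for Ect2 0.87 (adjusted p = 0.0625), none of which passed. Correction for GC content and length ended the call for Cenpf (-1.15, limma adjusted p = 0.0581), whereas with the same correction and the library number as a block it was the 1 member called (-1.03, adjusted p = 0.0425). With the library number as a block 3 members were called, Cenpf, Cenpe (-0.91, limma adjusted p = 0.0346) and Ect2 (0.92, adjusted p = 0.0437), while 5.1% of all genes tested were called in that fit, so the members' share lay near that of all genes. For the other members a difference between the sexes was therefore not detectable with these libraries, which does not show that the changes were equal. Leaving out female ventral library 2, female dorsal library 1, male dorsal library 4 or male dorsal library 5 took the count to 0. It was 2 without male ventral library 5 and 3 without male dorsal library 6, where 2.34% and 2.85% of all genes were called.

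Over both sexes, with sex as a term in the fit, 29 members were called higher dorsally and none ventrally, where 9.06% and 9.8% of all 15772 genes tested were called in these directions. They were 9 S-phase and 20 mitotic genes, with median changes of -0.47 and -0.45 over the 2 classes and 0.03 over all genes. The smallest adjusted p was that of Ccnb1 (-0.92 ± 0.14 SE, limma adjusted p = 0.00510), followed by Prc1 (-0.80, adjusted p = 0.00678) and Kif20a (-1.13, adjusted p = 0.00678). Of the 29, 24 were also called in females alone, and 5 (Cdk1, Ube2c, Nusap1, Cdc6 and Cdca8) were called in the joint fit alone. Mki67, Cenpe and Cenpf were called in females alone. With the library number as a block 24 members were called higher dorsally, against 6.37% of all genes in that fit, and Cdk1, Aurkb, Ube2c, Nusap1 and Cdca8 were lost (adjusted p between 0.0582 and 0.0781). With that block and the correction for GC content and length together, the count was 18, against 5.23% of all genes.

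Within each numbered pair of libraries most members were lower in the ventral one. In female pairs 1, 2 and 3 this held for 33, 42 and 41 of the 49, and in male pairs 4, 5 and 6 for 46, 40 and 42. The share of all genes lower in the ventral library of each pair was not counted. The median change was smallest in pair 1 for the mitotic genes (-0.10) and in pair 6 for the S-phase genes (-0.16). It was largest in pair 4, with -0.60 for S-phase and -0.80 for mitotic genes. As a mean over the S-phase genes, relative to the mean of the 13 settled libraries, the female ventral libraries lay between -0.27 and -0.15 and the female dorsal ones between 0.14 and 0.35. Male ventral library 5 (0.05) reached male dorsal library 6 (0.04), and the other male ventral libraries lay between -0.35 and -0.20. Over the mitotic genes, female ventral libraries lay between -0.16 and 0.09 and female dorsal ones between 0.20 and 0.42, and male ventral library 7 was the lowest of all at -0.60. The unsettled library had 0.34 for the S-phase and 0.10 for the mitotic genes, at ranks 2 and 6 of 14. In it Ccnb1 was at 213 CPM, Kif20a at 112 CPM, Rrm2 at 343 CPM, Mcm6 at 210 CPM and Mki67 at 97.7 CPM.

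**Figure D5:**
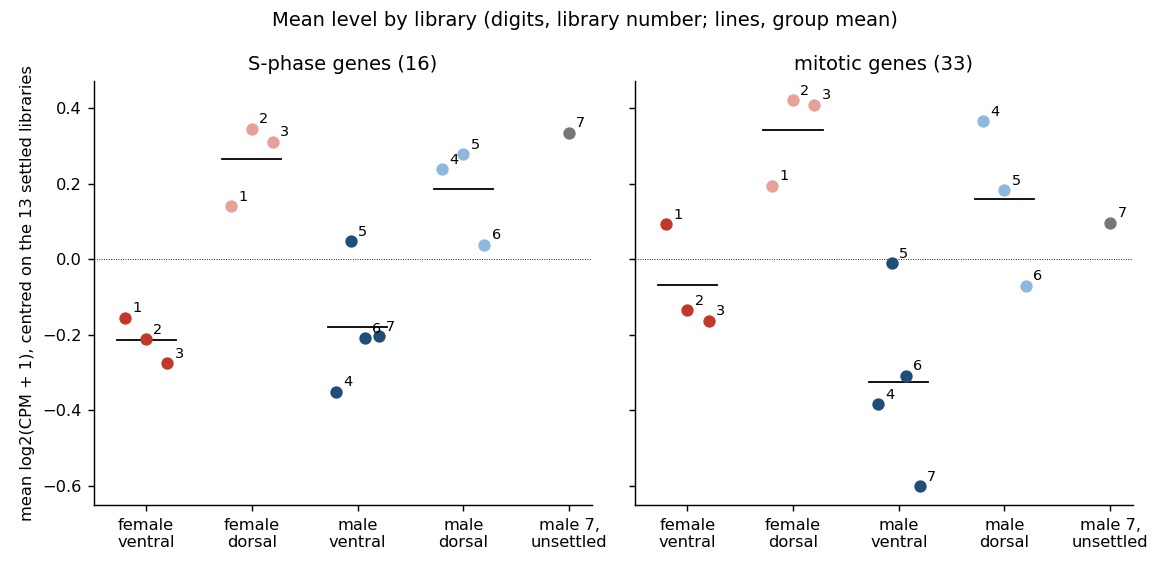
Mean log2(CPM + 1) over the 16 S-phase genes (left) and the 33 mitotic genes (right) in each library, centred on the 13 settled libraries; digits are library numbers and lines are group means. Female ventral libraries sit below female dorsal ones in both panels, male ventral library 5 sits beside male dorsal library 6, and the unsettled library sits at 0.34 and 0.10.

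Between the sexes, with region as a term, 7 members were called higher in females and none in males, where 6.54% and 4.4% of all genes tested were called. All 7 were mitotic: Mybl2, Mki67, Top2a, Hmmr, Cenpf, Cenpe and Mad2l1. Over both regions, Mki67 averaged 146.4 ± 52.3 CPM in the 6 female and 76.2 ± 20.4 CPM in the 7 male libraries (SD). Its log2 change was -0.93 ± 0.21 SE (limma adjusted p = 0.00955). In its case the 3 female ventral libraries stood above every other library, while the female dorsal ones (97.7 to 99.5 CPM) lay beside the highest male ones (95.9 and 96.3 CPM). Mybl2, a transcription factor of late S phase and G2, averaged 10.8 ± 2.61 CPM in females and 5.25 ± 0.871 CPM in males (-0.88 ± 0.19 SE, limma adjusted p = 0.00661). Top2a averaged 278.1 ± 18.7 CPM in females and 196.8 ± 45.2 CPM in males (-0.52 ± 0.14 SE, limma adjusted p = 0.0226). After correction for GC content and length, Mki67 and Mybl2 were called and the other 5 were not (adjusted p between 0.0569 and 0.467). In that fit 5.4% of all genes were called higher in females. Female libraries carry the numbers 1 to 3 and male libraries 4 to 7, so sex and numbering cannot be told apart. The fit between the sexes counted each library as separate, although same-numbered ventral and dorsal libraries were taken as paired. With the library number as a random effect, 6 members were called higher in females, against 6.42% of all genes. Without that effect, the count was 2 when female ventral library 1 or 3 was left out. This lay below the share over all genes, of which 5.47% and 5.24% were called higher in females. It was 4 without female ventral library 2, male ventral library 6 or male dorsal library 6, against 5.38%, 5.48% and 5.88% of all genes.

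Levels of the members were compared with each other per kilobase of transcript. Over the 13 settled libraries together Rrm2 was highest at 137.1 CPM per kilobase, followed by Cenpa (104.0), Ccnb2 (92.9) and Pcna (91.4). The order differed by group, and in the female ventral libraries Pcna (106.3) and Cenpa (99.3) came first and Rrm2 (76.7) was at rank 4, while Rrm2 was first in the other groups. Mki67 and Cenpf, at ranks 41 and 42 of 49 with 10.8 and 9.74 CPM per kilobase, were among the lower ones. The lowest were Cdc6 (5.38), Foxm1 (3.39) and Mybl2 (2.14). Some of these levels are uncertain because reads can be shared. Of the windows of Ccnb1, 21.5% occur in pseudogenes of it, and of those of Ccna2, 11.1% occur in its neighbour Exosc9. The shared part was 18.8% for Mcm7, 18.4% for Mybl2, 13.75% for Ccne2 and 13.3% for Ube2c.

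Other cell cycle genes were counted from lists drawn up by function, and their female counts stand against the 13.3% and 14.5% of all genes called higher dorsally and ventrally. Of 38 further mitotic genes, 13 were called higher dorsally in females and 1, Aspm, ventrally, with a median change of -0.32. The 2 with the smallest p were Kif2c, a microtubule depolymerase (28.4 ± 4.96 CPM ventrally and 69.1 ± 3.45 CPM dorsally, SD, n = 3 each; log2 change -1.27, limma adjusted p = 0.00113), and Racgap1, a partner of Ect2 in cytokinesis (70.0 ± 11.7 and 153.4 ± 12.5 CPM; -1.13, adjusted p = 0.00123). Of 30 further S-phase genes, 2 were called higher dorsally, Fen1 and Slbp (-0.74 and -0.44), and 1, Clspn, ventrally, and the median change was -0.22. These counts are below the shares over all genes. Of 11 genes of G1 and cell cycle entry, Cdk2 (-0.99, limma adjusted p = 0.00361) and Myc (-0.77, adjusted p = 0.0106) were called higher dorsally. The D cyclins Ccnd1, Ccnd2 and Ccnd3 were not called, with changes of -0.20, 0.12 and -0.28.

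Of 15 genes tested that restrain the cycle, 7 were called higher dorsally in females (Btg1, Rbl1, Rbl2, Cdkn2c, Wee1, Ccng1 and Ccng2), 1 was called higher ventrally and 7 were not called, beside the same shares over all genes. Btg1, an antiproliferative gene, was at 97.5, 110.7 and 96.4 CPM ventrally and 237.5, 230.4 and 242.2 CPM dorsally (-1.22 ± 0.12 SE, limma adjusted p = 0.000436). Rbl1, the retinoblastoma relative p107, was at 17.1, 15.1 and 14.7 CPM ventrally and 41.4, 46.1 and 47.7 CPM dorsally (-1.47 ± 0.17 SE, limma adjusted p = 0.000687). Neither overlapped. The gene called higher ventrally was Cdkn1b, the inhibitor p27, at 34.5, 43.5 and 52.6 CPM ventrally and 13.2, 16 and 22.8 CPM dorsally (1.29 ± 0.24 SE, limma adjusted p = 0.00463). Cdkn1a (0.02, limma adjusted p = 0.951) and Cdkn1c (-0.66, adjusted p = 0.294) were not called. In males none of these 4 lists held a called gene, and the median change was -0.34 for the further mitotic genes, -0.13 for the further S-phase genes, -0.02 for the G1 genes and 0.08 for the inhibitors.

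Markers of other cell types moved with region in the same libraries. In females all 8 epicardial markers were called higher ventrally, and their summed level was 1630 to 2594 CPM ventrally and 265.0 to 584.6 CPM dorsally. Macrophage markers (5 of 6 called) summed to 205.7 to 415.6 CPM against 66.9 to 122.1 CPM, lymphatic endothelial markers (4 of 6) to 394.8 to 1960 CPM against 148.2 to 289.6 CPM, and fibroblast markers (4 of 7) to 8610 to 15920 CPM against 2457 to 3844 CPM. Ventricular cardiomyocyte markers, in contrast, summed to 18326 to 25811 CPM ventrally and 21803 to 34595 CPM dorsally, with 7 of 8 at a negative change, none of them called and 1 called higher ventrally. Smooth muscle markers summed to 729.1 to 1132 CPM ventrally and 1257 to 1560 CPM dorsally in females, without overlap. Of these 6 markers, 3 were called higher dorsally (Myh11, Cnn1 and Rgs5) and 1 ventrally (Notch3). Myh11 was low, at 0.03 to 1.59 CPM ventrally and 2.37 to 6.81 CPM dorsally. The female marker counts stand beside the 13.3% and 14.5% of all genes called higher dorsally and ventrally. In males, epicardial markers summed to 1838 to 5510 CPM ventrally and 1478 to 3924 CPM dorsally, and cardiomyocyte markers to 14082 to 26549 CPM against 28225 to 35434 CPM, without overlap. Male smooth muscle markers summed to 441.3 to 1445 CPM ventrally and 1127 to 1583 CPM dorsally. All 6 markers of blood endothelium had a negative change in males, with a median of -0.90 and none called. Male ventral library 7, the lowest for the mitotic genes, stood apart, with 95.2 CPM for the blood endothelial markers against 388.4 to 517.8 CPM in the other male ventral libraries and 290.8 CPM for the 3 listed erythroid markers. Of the 5 thymocyte and the 5 hepatocyte markers 1 and 2 were listed, and they summed to less than 10 CPM in every library. Mitochondrial transcripts took 6.19% to 8.28% of the reads in the female ventral libraries and 3.83% to 4.76% in the dorsal ones. In males they took 2.20% to 6.07% ventrally and 3.15% to 4.84% dorsally, with overlap. The part of these differences in the values of the members was not tested.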

How the data were processed

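RNA was sequenced from 14 libraries of dissected mouse epicardium and subepicardium. Per the study's methods and the labels, the authors aligned the reads and estimated gene counts with RSEM (version 1.3.1 in the submitters' processing notes), and deposited a table of normalised values. These signal values, as deposited by the authors, are whole reads plus a small constant, scaled to an effective library size (CPM); whole reads could be recovered for all values within 0.02 reads. 

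Ventral and dorsal libraries were compared within each sex and over both sexes with sex as a term. The sexes, and the difference between their regional changes, were compared over the 13 libraries with a settled group. Genes at 1 CPM or more in at least 3 libraries were tested on log2(CPM + 1), pseudocount 1, with limma 3.58.1 (trended eBayes, two-sided, Benjamini-Hochberg over all genes tested, threshold 0.05) in R 4.3.3. A fold change on this scale understates the change of low genes. The edgeR 4.0.16 quasi-likelihood test on recovered reads was an alternative. The scripts were tested on simulated data. The members and lists were chosen with earlier results of these data known. Any member could be named; values per library are given for the best-known ones and for the member with the smallest p in each role and sex. Outside the members, the D cyclins, Cdkn1a, Cdkn1b, Cdkn1c and the 2 genes with the smallest female p in each list were named. Aspm, Clspn and the inhibitors Rbl2, Cdkn2c, Wee1, Ccng1 and Ccng2 were named after their values were seen.

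Same-numbered ventral and dorsal libraries had correlations of 0.169 to 0.427 in their deviations from the group means, over 15772 genes in 6 pairs. The number was taken to pair them on this basis and not from a statement in the labels. Differently numbered libraries were not compared in this way, so these correlations cannot show that the number marks a pair. The study's methods describe the pools as biological replicates drawn from at least 3 litters. Which litter each pool came from is not given in the sources used here. Fits without the library number as a block counted each library as separate, so their p-values measure the spread between libraries. GC content and transcript length came from GENCODE gene models on GRCm38, for 15877 genes; shared windows of 60 bases were counted on the same transcripts. Whether counting used strand is not given in the sources used here. Promoter windows came from RefSeq.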

Additional observations from a re-analysis of the deposited data

Results flagged for a closer look

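Within the 4 male ventral libraries, 4 of the 49 members had 1 library far from the others by Dixon's criterion at the 95% level, where chance alone gives about 1 in 20. Aurkb was at 55.1 CPM in male ventral library 5 and between 43.4 and 43.7 CPM in the others. Nuf2 was at 38.7 CPM in the same library, against 30.1 to 31.5 CPM. Foxm1 was at 22.8 CPM in male ventral library 4, against 9.71 to 11.6 CPM, and Mybl2 at 6.47 CPM in that library, against 4.65 to 4.87 CPM. The change of Cenpf between regions differed by sex in the direct test (-1.45 on the log2 scale, male minus female, limma adjusted p = 0.0203). After correction for GC content and transcript length the difference was -1.15 and was no longer called (limma adjusted p = 0.0581).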

How the results depend on the processing

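No called value changed sign under the alternatives run. Of the 27 members called in females, 14 were called under each of the 16 alternatives (Bub1, Ccnb1, Ccne2, Cenpe, Ect2, Kif11, Kif20a, Mcm3, Mcm6, Mki67, Plk1, Prc1, Rrm1 and Rrm2). The count was 16 with eBayes without trend, where 23.4% of all genes were called, and between 16 and 27 with 1 library left out. In the fit with 27, 22.9% of all genes were called. Over both sexes it was 29, between 21 and 31 with 1 library left out, and 18 with the replicate block and the correction for GC content and length together. Of all genes, 4.6% were called higher dorsally in the fit with 21 and 6.99% in the fit with 31. In males it was 0, and 1 with the replicate block, alone or with that correction; leaving out each library gave 0 to 0. For the test of the regional change by sex the count was 1. It was 2 with a mean of at least 10 CPM or rescaling by the median of ratios. Of all genes, 4.81% and 2.93% were called in these fits. The count was 0 with eBayes without trend or the correction, 3 with the replicate block and 1 with the block and the correction together. The shares of all genes called were 2.12%, 2.33%, 5.1% and 4.71%, in this order. With 1 library left out the count was 0 to 3. Between the sexes it was 7, then 3 with eBayes without trend and 2 with the correction, alone or with the block as a random effect. In these fits 5.8%, 5.4% and 5.06% of all genes were called higher in females. The count between the sexes was 2 to 9 with 1 library left out. In the fit with 9, 6.15% of all genes were called higher in females. The median male change of the S-phase genes was -0.48 without male dorsal library 6. Apart from the calls given in the report, those of Mad2l1 between the sexes (limma adjusted p = 0.0510) and of Tpx2 in females (0.0580), the replicate block alone changed no call of a member. Why these values moved was not tested. With 3 or 4 libraries a group, small changes were not detectable.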
